A study of Mus musculus with 10 samples.

Results

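The Hox genes of the 4 clusters are the subject here, in mouse embryonic stem cells that carry a degradable form of the nucleolar histone chaperone NPM1. Members were all genes of the deposited count table whose symbol is Hox followed by a cluster letter a to d and a number, which gave 38 of 33006 genes. There were 11 in the Hoxa cluster, 10 in Hoxb, 9 in Hoxc and 8 in Hoxd, and Hoxd4 was not analysed here. The RNA groups were NPM1AID cells of the E14 line with auxin and without auxin, 12 h after release from a G1 arrest, with 2 libraries each. Proteins with the AID tag are destroyed once auxin is added. All cells, with or without auxin, carried the degradable NPM1 and grew with LIF and the inhibitors PD0325901 (1 µM, against MEK) and CHIR99021 (3 µM, against GSK3). The paths in the count table's header name clone 38, so the RNA may describe a single clone. H3K27me3, the histone mark laid down by Polycomb repressive complex 2 (PRC2), came as peak lists from 1 ChIP-seq sample at 6 h without auxin and 1 CUT&RUN sample of 12 h control cells. No peak list from cells with auxin was analysed here, so the mark itself was not compared between conditions.

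Hox genes encode homeodomain transcription factors that give cells a position along the head-to-tail axis of the embryo. Within a cluster they are numbered by paralog group, and low-numbered genes are in general used earlier and further forward than high-numbered ones. In embryonic stem cells the clusters are a classic target of Polycomb repression, held with H3K27me3 until the cells differentiate. Trithorax proteins of the MLL family counter that repression, PBX and MEIS proteins bind DNA together with HOX proteins, and retinoic acid and the CDX factors induce Hox genes in the embryo.

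Promoter sequence was available for 21 members from RefSeq (build GRCm38.p6), in 23 windows since Hoxa10 and Hoxd11 had 2 starts each. The 250 bases before the start held a median of 13 CG dinucleotides and 59.2% G and C in the members. Across all 32851 RefSeq windows the medians were 6 CG and 52.4%, and 31.5% of them held at least 13 CG. CG content ranged from 2 in 1 of the Hoxd11 windows to 35 in that of Hoxa13. The 4 windows below, printed 5′ to 3′ on the coding strand with each CG in capitals, hold no exon base of the count annotation. They are shown because they span the CG range and both states of the mark. That of Hoxa9 (chr6:52227371-52227620, minus strand), the member with the largest fitted change, held 3 CG and no peak over it. The downstream start of Hoxa10 (chr6:52234940-52235189, minus strand) held 20 CG and lay wholly under a peak in both lists. Hoxa13 (chr6:52260881-52261130, minus strand) held 35 CG and no peak over it. Hoxb8 (chr11:96281655-96281904, plus strand) held 12 CG, with all 250 bases under a CUT&RUN peak and 173 under ChIP-seq peaks.
Hoxa9: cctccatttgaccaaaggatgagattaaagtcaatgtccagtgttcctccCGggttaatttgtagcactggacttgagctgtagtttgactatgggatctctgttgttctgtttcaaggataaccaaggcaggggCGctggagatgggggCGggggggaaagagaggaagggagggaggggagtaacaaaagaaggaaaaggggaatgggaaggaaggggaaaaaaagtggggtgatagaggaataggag
Hoxa10: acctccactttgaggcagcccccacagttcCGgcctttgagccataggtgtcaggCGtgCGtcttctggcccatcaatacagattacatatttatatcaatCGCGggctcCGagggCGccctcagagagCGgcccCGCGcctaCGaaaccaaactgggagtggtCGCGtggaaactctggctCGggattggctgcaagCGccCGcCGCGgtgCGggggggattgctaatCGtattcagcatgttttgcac
Hoxa13: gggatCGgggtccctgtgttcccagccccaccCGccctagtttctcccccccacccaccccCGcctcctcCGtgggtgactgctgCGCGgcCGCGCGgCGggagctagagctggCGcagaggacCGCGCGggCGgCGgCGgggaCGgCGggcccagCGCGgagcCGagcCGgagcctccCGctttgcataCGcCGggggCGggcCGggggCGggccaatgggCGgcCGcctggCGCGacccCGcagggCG
Hoxb8: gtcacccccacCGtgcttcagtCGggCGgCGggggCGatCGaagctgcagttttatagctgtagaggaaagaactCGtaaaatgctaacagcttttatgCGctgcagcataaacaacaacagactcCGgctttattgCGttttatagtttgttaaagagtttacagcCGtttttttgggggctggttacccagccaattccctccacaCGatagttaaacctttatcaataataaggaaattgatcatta

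Short motifs were searched on both strands of these 250-base windows, as letters only. TGATNNAT, the composite site of PBX with HOX proteins, occurred in 4 of 23 member windows (17.4%) and in 7.68% of all windows. Its carriers were Hoxa2, Hoxb1, Hoxb8 and Hoxd11. AGGTCA, a nuclear receptor half-site of the kind that retinoic acid receptors bind, occurred in 5 windows (21.7%, against 14% of all), those of Hoxb4, Hoxc4, Hoxd3, Hoxd8 and Hoxd10. The MEIS site TGACAG was found in 2 windows (8.70%, against 15.9%) and TTTATNG, bound by CDX and posterior HOX proteins, in 1 (4.35%, against 9.81%), that of Hoxb8. Matches of different motifs overlapped in 0 of the 23 windows, and a match is not evidence of binding.

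Hox RNA was scarce in these cells but present in all 4 libraries. The 38 members summed to 1462 and 2146 counts in the auxin libraries, and to 1082 and 1201 counts in the libraries without auxin. The libraries held 13353446 to 16046290 counts in all. In CPM, counts scaled to TMM-adjusted library sizes, the sum was 108 and 128 with auxin, against 76.0 and 81.4 without. Both auxin libraries thus lay above both libraries without auxin. In bulk RNA, more cells with a transcript and more transcript per cell cannot be told apart.

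The levels without auxin differed widely among members. Per kilobase of annotated exon (FPKM), 2 neighbours at the 5′ end of the Hoxc cluster stood highest, Hoxc12 at 9.88 ± 0.484 and Hoxc13 at 9.70 ± 1.25 (SD, n = 2), and their order lay within that spread. Hoxb9 stood at 2.14 ± 0.250 and Hoxc10 at 2.11 ± 0.586, again without separation. The median member stood at 0.223 FPKM. By paralog class, the median FPKM without auxin was 0.0859 in the 8 anterior members (groups 1 to 3), 0.256 in the 14 central members (4 to 8) and 0.455 in the 16 posterior members (9 to 13). By cluster, the median was 0.980 in Hoxc, 0.196 in Hoxa, 0.157 in Hoxd and 0.0782 in Hoxb. Hoxc has no anterior member, so paralog class and cluster are mixed in these medians, and a trend along the paralog groups was not tested. Hoxb5 and Hoxb6 had no count in any library.

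**Figure D1:**
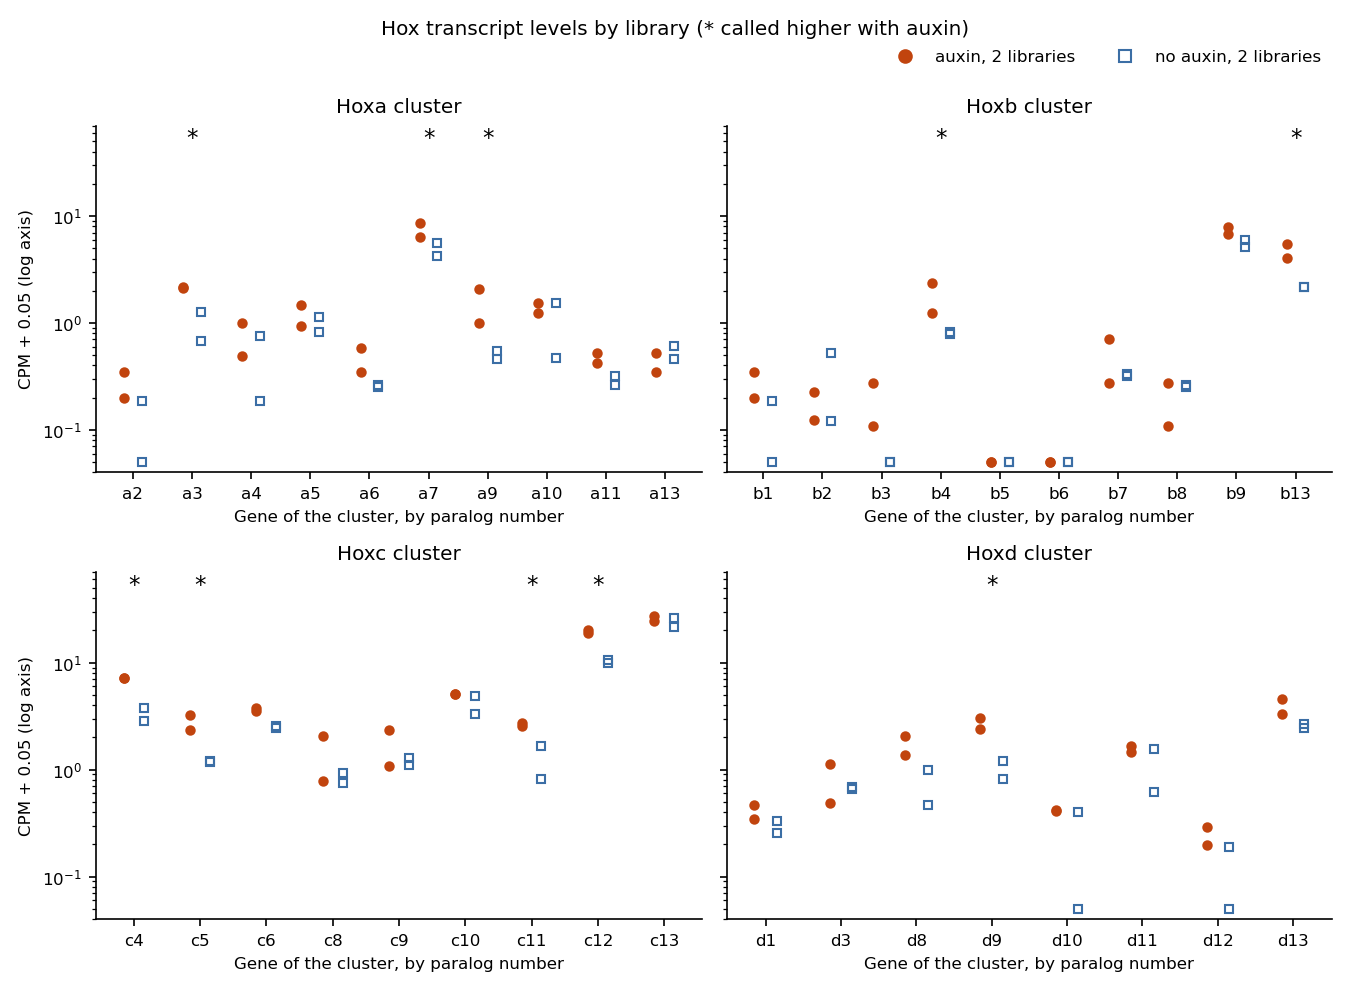
CPM of 37 members in each library, plus 0.05, on a log axis, with genes ordered by paralog number within each cluster; filled circles are the 2 auxin libraries, open squares the 2 libraries without auxin. Asterisks mark the 10 members called higher with auxin; Hoxc12 and Hoxc13 stand above 9 CPM, and most Hoxb members lie below 1 CPM.

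With auxin, 10 of the 23 Hox genes that passed the expression filter rose, and none of them fell. The risers were Hoxa3, Hoxa7 and Hoxa9, Hoxb4 and Hoxb13, Hoxc4, Hoxc5, Hoxc11 and Hoxc12, and Hoxd9. They came from every cluster and from central and posterior paralog groups, with Hoxa3 alone from the anterior ones. A gene was called at a Benjamini-Hochberg adjusted p under 0.05 over 13522 tested genes in edgeR's quasi-likelihood test, which called 13% of all tested genes higher and 14.5% lower. The other 13 tested members were not called, and 15 members had too few counts to be tested. Among those that passed the filter the fitted log2 fold change ran from 0.11 (Hoxc13) to 1.75 (Hoxa9), with none negative. Its median was 0.78, against 0.01 over all tested genes. The filter shaped these values, since 5 of the 23 passed because both auxin libraries reached it while at most 1 library without auxin did (Hoxa3, Hoxa9, Hoxa10, Hoxd8 and Hoxd11), and no member passed by the libraries without auxin alone. Among these 5, Hoxa3, the one anterior riser, and Hoxa9, with the largest fitted change, were called higher. Over all 13522 tested genes, 548 passed by the auxin libraries alone and 178 by the libraries without auxin alone. Of those 548, 128 were called higher. Of the 15 members left out, 10 had the higher mean CPM with auxin, 3 the lower (Hoxa13, Hoxb2 and Hoxb8) and 2 had no count. Of all 19484 genes left out, 3675 had the higher mean with auxin, 2618 the lower and 13191 equal means. In 15 of the 23, both auxin libraries lay above both libraries without auxin, which held for 33% of all tested genes. By cluster, 3 of 7 tested members rose in Hoxa, 2 of 3 in Hoxb, 4 of 9 in Hoxc and 1 of 4 in Hoxd. By paralog class, 1 of 2 tested anterior members rose, with 4 of 9 central and 5 of 12 posterior ones.

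**Figure D2:**
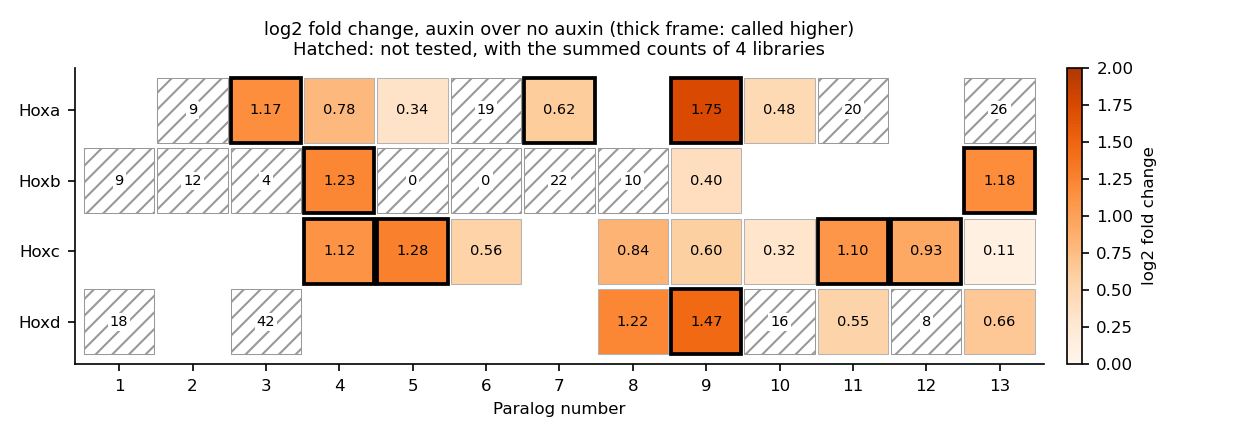
Fitted log2 fold change, auxin over no auxin, of 37 members by cluster (rows) and paralog number (columns). Thick frames mark the 10 called members; hatched cells are the 15 untested members with their counts summed over 4 libraries, from 0 (Hoxb5, Hoxb6) to 42 (Hoxd3).

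The auxin libraries were not alike. Auxin replicate 2 stood above auxin replicate 1 in 18 of the 23 tested members, in CPM, against 50.5% of all tested genes. Without auxin replicate 2, 5 Hox genes were called higher, and 18 of the 22 members still tested had a positive value. Those 5 were Hoxb13, Hoxc4, Hoxc12, Hoxd8 and Hoxd9. Without replicate 1 of the libraries without auxin, 6 were called (Hoxa9, Hoxb13, Hoxc4, Hoxc5, Hoxc12 and Hoxd9). DESeq2 called fewer genes in general, with 880 of all genes higher against 1759 in the main edgeR fit. Of the Hox genes it called 3, which were Hoxb13, Hoxc4 and Hoxc12. These 3 were called under all 10 alternative settings tried. No label says whether replicates were separate cultures, so p-values reflect library-to-library spread that could be purely technical.

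Among the anterior genes (groups 1 to 3, which pattern the hindbrain and the front of the trunk), Hoxa3 was the riser. Hoxa3, needed for organs of the pharyngeal arches such as the thymus, had 28 and 36 counts with auxin, against 9 and 18 without. The 2 auxin libraries agreed closely and lay above both others, which were themselves apart. The level was 2.1 ± 0.0520 CPM with auxin and 0.926 ± 0.416 CPM without, 2.25-fold higher (SE 0.36 on the log2 scale, edgeR adjusted p = 0.0302). That call was lost without auxin replicate 2 (adjusted p = 0.0912), without replicate 1 of the libraries without auxin (0.219) and with DESeq2 (0.203). The longest annotated transcript of Hoxa3 begins between Hoxa6 and Hoxa7, and Hoxa3 shares 267 exon bases with Hoxa2.

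Of the 8 anterior members, 6 were not tested. Among these, Hoxd3 had 6 and 18 counts with auxin and 9 and 9 without, and Hoxd1 had 4 and 7 against 4 and 3. Hoxa2, Hoxb1, Hoxb2 and Hoxb3 had at most 7 counts in any library. Hoxb3 had 3 and 1 counts with auxin and 0 in both libraries without. A count of 0 allows up to 3 counts there, or about 0.211 and 0.203 CPM.

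Among the central genes (groups 4 to 8, which pattern the neck and thorax), Hoxa7, Hoxb4, Hoxc4 and Hoxc5 rose. Hoxc4 had 97 and 120 counts with auxin, against 40 and 55 without. Both auxin libraries stood at nearly the same CPM, well above both others. Hoxc4 stood at 7.14 ± 0.0177 CPM with auxin and 3.27 ± 0.650 CPM without (log2 fold change 1.12, SE 0.20, edgeR adjusted p = 0.00194). Its highest adjusted p over the 10 alternatives was 0.00762.

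Its neighbour Hoxc5 had 31 and 54 counts with auxin and 16 and 17 without. The groups did not overlap, and auxin replicate 2 was the highest library. Hoxc5 was 2.43-fold higher (log2 fold change 1.28, SE 0.31, edgeR adjusted p = 0.0102). The call was lost without auxin replicate 2 (adjusted p = 0.117) and with DESeq2 (0.0929). In this annotation a Hoxc5 transcript begins inside Hoxc10, with which it shares 166 exon bases.

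Hoxb4, known for expanding blood stem cells when overexpressed, had 16 and 39 counts with auxin, against 11 and 11 without. Auxin replicate 2 stood well apart from the other 3 libraries. The fitted change was 2.35-fold (log2 scale 1.23, SE 0.41, edgeR adjusted p = 0.0444). Leaving out auxin replicate 2 brought it to 0.63 on the log2 scale (adjusted p = 0.517), and it was also lost without either library of the group without auxin (0.110 and 0.113) and with DESeq2 (0.248).

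Hoxa7 had 86 and 145 counts with auxin and 60 and 82 without. In CPM the groups did not overlap, at 6.34 and 8.61 with auxin and 4.21 and 5.56 without. It was 1.54-fold higher (SE 0.21 on the log2 scale, edgeR adjusted p = 0.0452), lost without auxin replicate 2 (adjusted p = 0.311), without replicate 1 of the group without auxin (0.197) and with DESeq2 (0.191).

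The tested central members that were not called were Hoxa4, Hoxa5, Hoxc6, Hoxc8 and Hoxd8. Hoxd8 had 27 and 22 counts with auxin and 6 and 14 without, so the groups did not overlap. Its log2 fold change was 1.22 (SE 0.43, edgeR adjusted p = 0.0546), just outside the threshold. It passed under 5 of the 10 alternatives, among them those without auxin replicate 2 (adjusted p = 0.0297) and without replicate 2 of the group without auxin (0.0275). Hoxc6 had 47 and 63 counts with auxin, against 36 and 35 without (log2 fold change 0.56, adjusted p = 0.0938). Hoxc8 had 10 and 34 counts with auxin and 10 and 13 without, where 1 library carried the difference. Without auxin replicate 2 its log2 value was −0.10, and without auxin replicate 1 it was 1.34 (edgeR adjusted p = 0.0296). Hoxa4 and Hoxa5 had log2 values of 0.78 and 0.34, with overlapping groups. Hoxa4 had 6 and 16 counts with auxin, against 10 and 2 without, and its value was 2.34 without replicate 1 of the group without auxin and 0.03 without replicate 2 of that group. Of the 5 untested central members, Hoxb7 had 3 and 11 counts with auxin against 4 and 4 without, Hoxa6 had 4 and 9 against 3 and 3, and Hoxb8 had 3 and 1 against 3 and 3.

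Among the posterior genes (groups 9 to 13, which pattern the lumbar to tail region, the limbs and the urogenital tract), Hoxa9, Hoxb13, Hoxc11, Hoxc12 and Hoxd9 rose. Hoxc12 had 274 and 316 counts with auxin, against 150 and 145 without. Replicates lay close together in both groups. Per length it stood at 18.9 ± 0.984 FPKM with auxin and 9.88 ± 0.484 FPKM without, 1.91-fold higher (edgeR adjusted p = 0.000291). Its neighbour Hoxc13, a regulator of hair and nail keratins, had 330 and 455 counts with auxin and 371 and 320 without. The groups overlapped, and its log2 fold change was 0.11 (SE 0.11, edgeR adjusted p = 0.501), with −0.02 when replicate 2 of the group without auxin was left out. The difference between these neighbours was not itself tested.

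Hoxb13, a gene of the tail bud and later of the prostate, had 54 and 92 counts with auxin, against 30 and 31 without. The libraries without auxin were almost equal and both auxin libraries were higher, replicate 2 most of all. Hoxb13 was 2.26-fold higher (log2 fold change 1.18, SE 0.25, edgeR adjusted p = 0.00510), and its highest adjusted p over the alternatives was 0.0421. It lies apart from the rest of the Hoxb cluster, with Hoxb9 as its nearest member.

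Hoxd9, a gene of the lumbar spine and the proximal limb, had 32 and 50 counts with auxin, against 11 and 17 without. No library of one group reached the other. It was 2.77-fold higher, at 2.67 ± 0.431 CPM with auxin and 0.963 ± 0.269 CPM without (edgeR adjusted p = 0.00649), and missed the threshold only with DESeq2 (adjusted p = 0.0558).

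Hoxa9, a driver of myeloid leukaemia when overexpressed, had 13 and 34 counts with auxin and 7 and 6 without. Auxin replicate 2 again stood highest. The fitted change was 3.37-fold (log2 scale 1.75, SE 0.48, edgeR adjusted p = 0.0192). It was lost without auxin replicate 2 (log2 scale 1.08, adjusted p = 0.317) and without replicate 2 of the group without auxin (0.0674), and DESeq2 gave it no adjusted p.

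Hoxc11 had 34 and 45 counts with auxin, against 11 and 24 without. Both auxin libraries were alike and above the others, which differed from each other. It was 2.14-fold higher (SE 0.34 on the log2 scale, edgeR adjusted p = 0.0339), lost without auxin replicate 2 (adjusted p = 0.0821), without replicate 1 of the group without auxin (0.231) and with DESeq2 (0.183).

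The tested posterior members that were not called had log2 fold changes of 0.11 to 0.66. Hoxd13, which shapes the digits, had 44 and 76 counts with auxin, against 37 and 35 without (0.66, edgeR adjusted p = 0.0723). It passed without auxin replicate 1 (adjusted p = 0.0291). Hoxb9 had 91 and 131 counts with auxin and 72 and 88 without (0.40, adjusted p = 0.117), with both auxin CPM values above both others. Hoxa10, Hoxc9, Hoxc10 and Hoxd11 stood at 0.48, 0.60, 0.32 and 0.55 with adjusted p from 0.298 to 0.489. Leaving out replicate 1 or replicate 2 of the group without auxin gave 0.02 or 1.41 for Hoxd11 and 0.06 or 0.63 for Hoxc10. Untested were Hoxa11, Hoxa13, Hoxd10 and Hoxd12. Among them Hoxa13, which acts in the digits and the genital tract, had 4 and 8 counts with auxin and 8 and 6 without, with overlap.

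Within paralog groups 4, 9 and 13 some tested members were called and others were not. All their tested members had positive fitted values, as did every tested member of the other groups. In group 4, Hoxb4 and Hoxc4 rose and Hoxa4 was not called. In group 9, with all 4 paralogs tested, Hoxa9 and Hoxd9 rose and Hoxb9 and Hoxc9 were not called. In group 13, Hoxb13 rose, Hoxc13 and Hoxd13 were not called and Hoxa13 was not tested. Whether paralogs differed from each other was not tested.

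**Figure D3:**
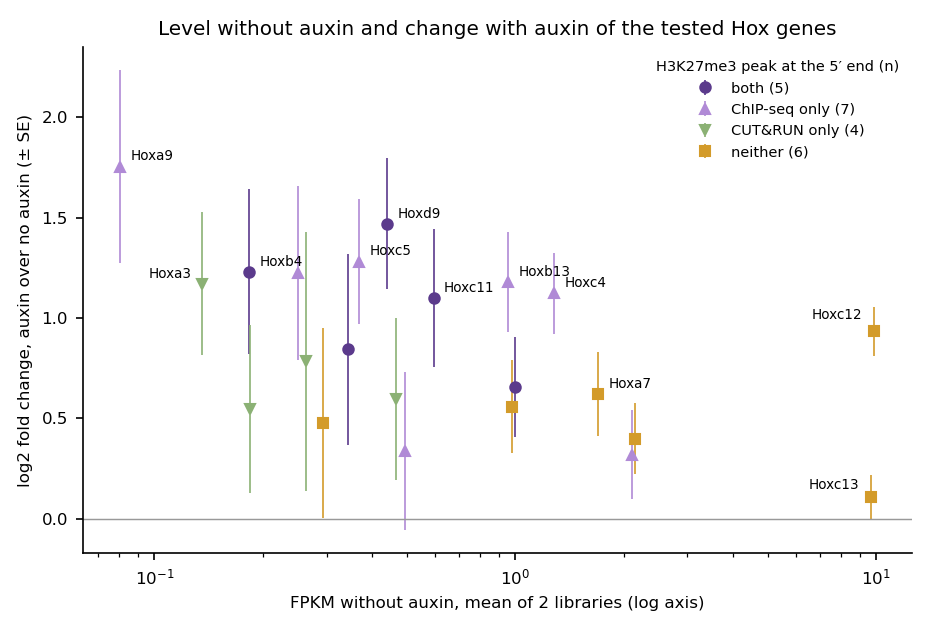
Fitted log2 fold change with its SE against the mean FPKM without auxin (log axis) for 22 tested members; symbols give the lists with an H3K27me3 peak within 1 kb of the annotated 5′ end. Hoxc12 and Hoxc13 stand apart in level at 9.88 and 9.70 FPKM, and their log2 fold changes are 0.93 and 0.11.

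The mark of control cells was then set beside these values. A member counted as marked when a deposited broad peak reached, by at least 1 base, within 1 kb of the 5′ end given by the count annotation. ChIP-seq marked 25 of 38 members, where 9.09% of all 32968 placed genes were marked. CUT&RUN marked 22 members, where 13.2% of all were marked, and both lists marked 17, where 5.95% of all were. Neither list marked 8 members. Neighbouring members can share a peak, so these counts are not independent. Each list comes from 1 sample, and the sequencing depth behind it is unknown. Weak peaks counted too, since the lists reach down to a −log10 q of 1.02 in ChIP-seq and 1.00 in CUT&RUN. The best CUT&RUN peaks at Hoxc11, Hoxa6 and Hoxa3 had a −log10 q of 1.08, 1.08 and 1.10. The counts depend on the window, with 6, 10 and 2 members in ChIP-seq, CUT&RUN and both when a peak had to cover the 5′ end base itself, and 32, 27 and 24 within 2 kb.

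The Hoxb cluster carried the densest mark at its 5′ ends. All Hoxb members from Hoxb1 to Hoxb8 were marked in both lists. CUT&RUN peaks covered the whole window at Hoxb3, Hoxb4 and Hoxb6, and the Hoxb3 window lay in a single peak of 19056 bases. ChIP-seq covered 1629 bases of the window at Hoxb4, 1480 at Hoxb3 and 1448 at Hoxb2. The tallest ChIP-seq peaks at a member, in the authors' fold enrichment, were those at Hoxb7 (4.47) and Hoxb5 (4.46). These 8 members held between 0 and 39 counts in any library, and of them Hoxb4 alone passed the expression filter. Hoxb9, the Hoxb member with the highest FPKM, had no peak near its 5′ end in either list, and Hoxb13 had one in ChIP-seq alone.

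Of the 9 Hoxc members, 3 had no peak near the 5′ end in either list, namely Hoxc6 and the most expressed members of the cluster, Hoxc12 and Hoxc13. The nearest ChIP-seq peak lay 12161 bases from Hoxc12 and 4804 bases from Hoxc13, and the nearest CUT&RUN peak lay 16804 and 4188 bases away. Neither list had a peak anywhere in the span of either gene. Hoxc8 and Hoxc11 were the Hoxc members marked in both lists, with 894 and 515 bases of the window under ChIP-seq peaks and 1461 and 1078 under CUT&RUN peaks.

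In Hoxa, the members marked in both lists were Hoxa2, Hoxa6 and Hoxa11, and none of these was tested. CUT&RUN overlaps were marginal at Hoxa6 (16 bases), Hoxa3 (48) and Hoxa4 (87). In Hoxd, both lists marked Hoxd1, Hoxd9, Hoxd12 and Hoxd13, and neither marked Hoxd3 or Hoxd10. Hoxd12 had the broadest cover of that cluster, with 1346 bases of the window under ChIP-seq peaks and 1146 under CUT&RUN peaks.

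**Figure D4:**
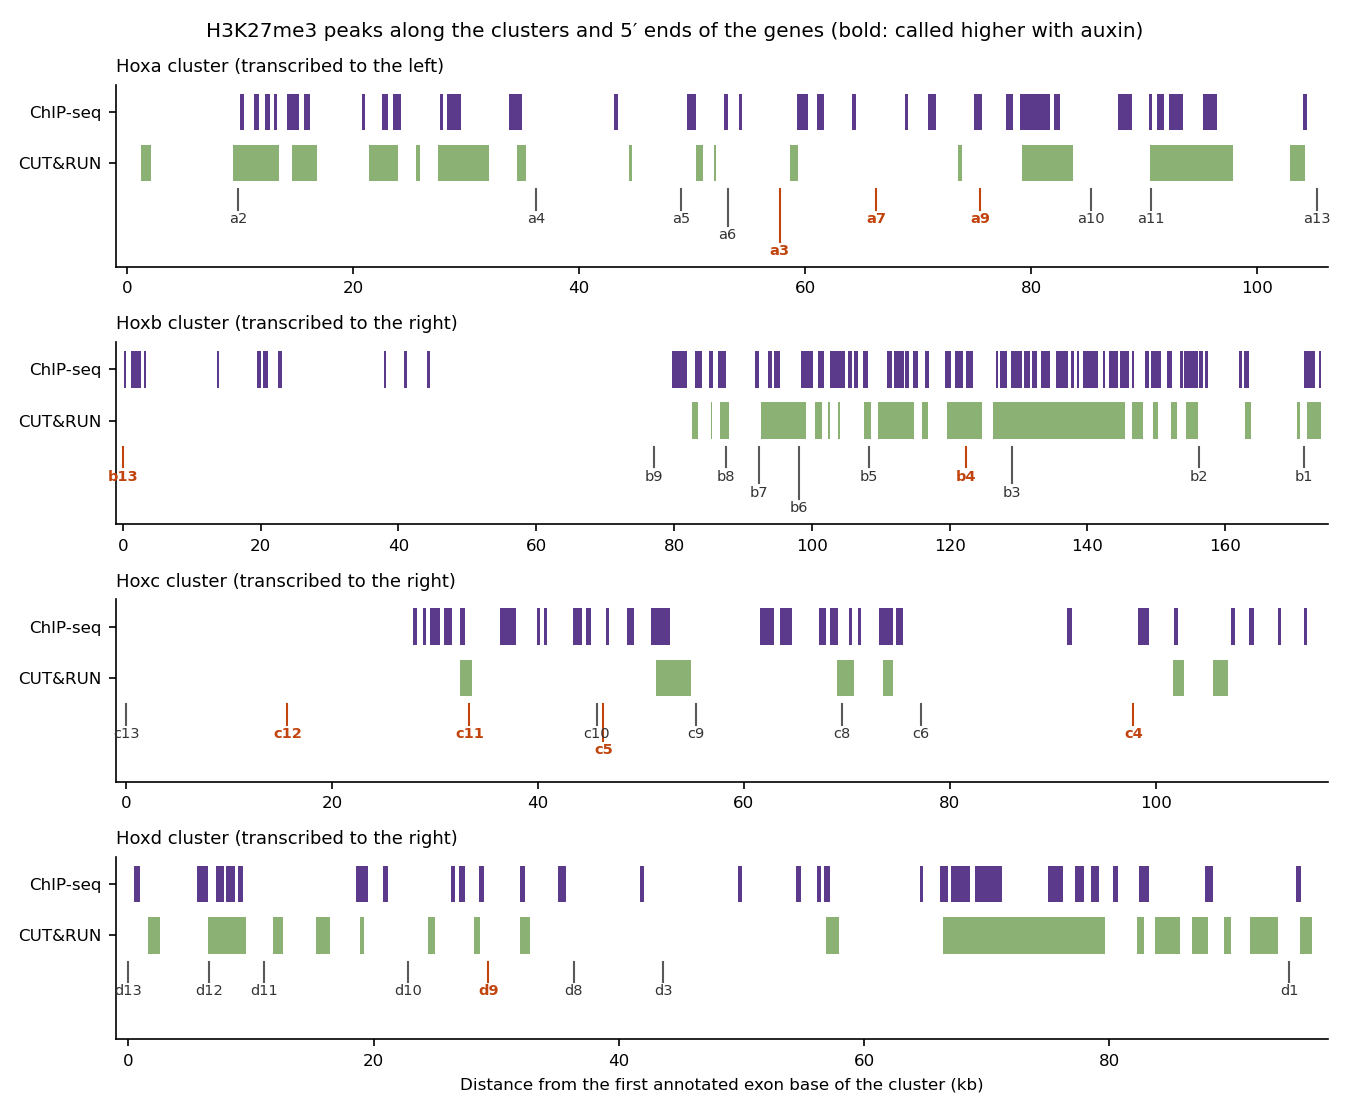
H3K27me3 peaks along each cluster in control cells (ChIP-seq at 6 h without auxin above, CUT&RUN at 12 h below, 1 sample each), with distance in kb from the first annotated exon base and a tick at the 5′ ends of 37 members. Bold names are the members called higher with auxin; the stretch that holds Hoxc13 and Hoxc12 has no peak in either list.

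**Figure D5:**
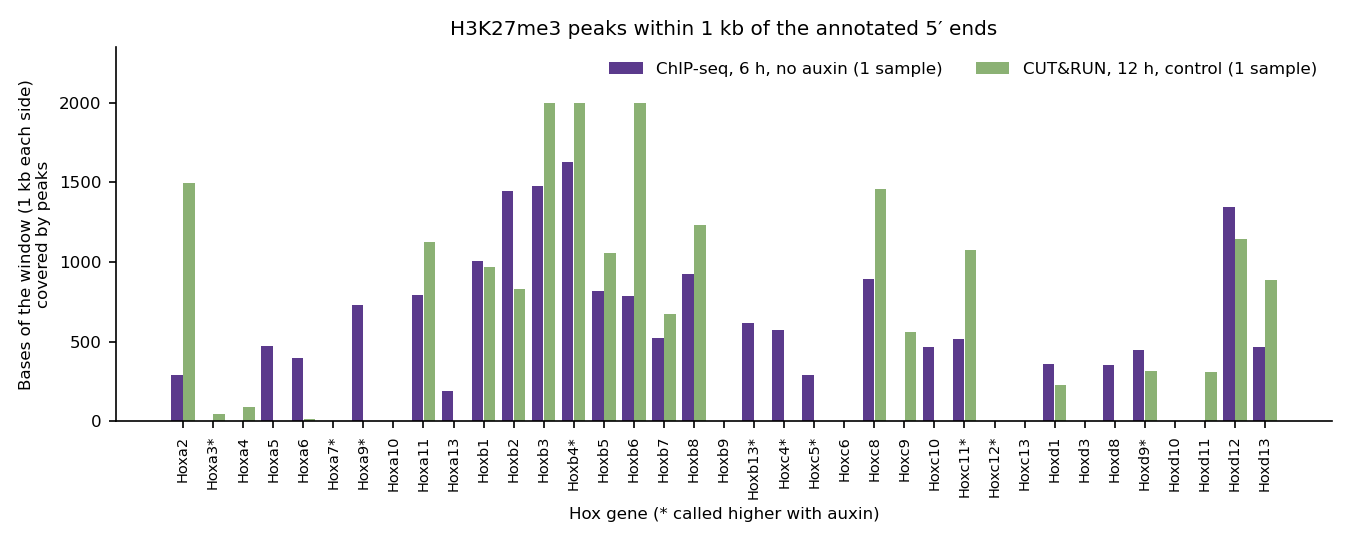
Bases within 1 kb of the 5′ ends of 37 members, upstream or downstream, that lie under H3K27me3 peaks, for ChIP-seq and CUT&RUN (1 sample each). The window is full at Hoxb3, Hoxb4 and Hoxb6 in CUT&RUN and empty in both lists at 8 members, among them Hoxa7, Hoxc12 and Hoxc13.

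Marked members were mostly those with the least RNA. The median FPKM without auxin was 0.0896 in the 17 members marked in both lists, 0.432 in the 8 marked by ChIP-seq alone, 0.263 in the 5 marked by CUT&RUN alone and 1.34 in the 8 marked in neither. Of the 17, 12 fell under the expression filter and had no test. The 5 tested were Hoxb4, Hoxc8, Hoxc11, Hoxd9 and Hoxd13, of which 3 rose (Hoxb4, Hoxc11 and Hoxd9). Among all 512 tested genes with the mark in both lists, 18.2% rose. Members with ChIP-seq peaks alone gave 4 risers of 7 tested (Hoxa9, Hoxb13, Hoxc4 and Hoxc5) and those with CUT&RUN peaks alone gave 1 of 5 (Hoxa3). Members without either mark gave 2 risers of 6 tested, Hoxa7 and Hoxc12. Risers therefore occurred with and without a peak at the 5′ end, and whether marked and unmarked members differed was not tested.

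Annotated starts bear on these overlaps. Of the 10 risers, 6 had a RefSeq start, and Hoxb13, Hoxc5, Hoxc11 and Hoxc12 had none. For 4 of these 6, the 5′ end in the count annotation lay more than 1 kb from the RefSeq start. The distance was 3281 bases at Hoxa7, 3719 at Hoxa9, 1583 at Hoxb4 and 15460 at Hoxc4. The ChIP-seq peak of 290 bases that marked Hoxc5, whose annotated 5′ end lies inside Hoxc10, also lay in the window of Hoxc10. With RefSeq starts where given, 25, 23 and 18 members were marked in ChIP-seq, CUT&RUN and both. The members behind these counts changed. At their RefSeq starts, the risers Hoxa3 and Hoxc4 had no peak within 1 kb in either list. Hoxa10 was marked in both lists through its downstream start, and Hoxd10 in CUT&RUN alone. The counts of risers by mark given above rest on the 5′ ends of the count annotation.

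Genes listed around the clusters, up to 893.0 kb away (Chn1), did not share a direction. Of 18 tested flanking genes, 5 rose, 4 fell and 9 were not called, at a median of 0.07 on the log2 scale. Among all tested genes 13% rose and 14.5% fell. Called genes other than Ttll6, Calcoco2 and Evx1 lay 154.7 kb (Cbx5) to 564.9 kb (Snx10) from a cluster. Mtx2 and Lnp, 60.7 and 88.9 kb from Hoxd, were not called. The largest rises lay beside Hoxb13. Ttll6, a tubulin-modifying enzyme 28.9 kb from the Hoxb cluster, had 175 and 281 counts with auxin, against 61 and 75 without (3.17-fold, edgeR adjusted p = 8.51e-05). Further out, Calcoco2, an autophagy receptor 82.4 kb away, had 2205 and 3126 counts with auxin and 774 and 994 without (2.86-fold, adjusted p = 1.96e-06). Neither gene had a peak at its 5′ end in either list. On the far side of Hoxa13, the homeobox gene Evx1, 52.6 kb from the Hoxa cluster, had 42 and 48 counts with auxin, against 105 and 84 without (log2 fold change −1.14, edgeR adjusted p = 0.00264). Thus Evx1 fell while 3 Hoxa genes rose. Evx2, beside Hoxd13, had 0 and 3 counts with auxin and 0 and 0 without. Calls of Ttll6, Calcoco2 and Evx1 held under all 10 alternatives.

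Of 9 HOX cofactor genes (PBX, MEIS and PKNOX), 1 rose and 8 were not called. The riser Meis3 had 55 and 90 counts with auxin and 35 and 26 without (2.25-fold, edgeR adjusted p = 0.00642). Among upstream and ParaHox factors, 4 of 11 tested rose and 7 were not called, where 13% of all tested genes rose. Cdx2, a direct activator of Hox genes in the trunk, had 146 and 185 counts with auxin, against 57 and 73 without (2.42-fold, edgeR adjusted p = 0.000322). Cdx1, T and Gdf11 rose by 0.23, 0.52 and 0.90 on the log2 scale, each call lost in at least 1 alternative that left out a library. The affected libraries were auxin replicate 2 (Cdx1 adjusted p = 0.0892, Gdf11 0.297), auxin replicate 1 (T, 0.163) and those without auxin, replicate 1 (Cdx1 0.198, Gdf11 0.163) and replicate 2 (Gdf11 0.0567). With DESeq2, T (adjusted p = 0.119) and Gdf11 (0.255) were also lost.

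In the retinoic acid pathway, 2 of 12 tested genes rose, 1 fell and 9 were not called. Over all tested genes, 13% rose and 14.5% fell. Aldh1a2, which makes retinoic acid, had 185 and 218 counts with auxin, against 85 and 63 without (log2 fold change 1.38, edgeR adjusted p = 0.000227). Stra6, the receptor for retinol-binding protein, rose 2.64-fold, a call lost without auxin replicate 1 (adjusted p = 0.0989), without replicate 1 of the group without auxin (0.150) and with DESeq2 (0.130). Rarg, a retinoic acid receptor, fell (log2 fold change −0.34, edgeR adjusted p = 0.00411). Of 15 tested MLL/trithorax and H3K27 demethylase genes, 1 rose (the demethylase Kdm6b, log2 fold change 0.22), 5 fell and 9 were not called. Rbbp5, a core subunit of MLL complexes, fell by 0.26. Kdm6b was lost without replicate 1 of the group without auxin (adjusted p = 0.0832).

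Of 25 Polycomb core genes, 6 rose, 9 fell and 10 were not called, at a median of −0.02 on the log2 scale. Among all tested genes the shares were 13% higher and 14.5% lower. Jarid2, a PRC2 cofactor, and Phc1 and Kdm2b, both of PRC1 complexes, fell by 0.54, 0.51 and 0.43 on the log2 scale. Among the 6 risers, Cbx8 and Bmi1 rose by 1.04 and 0.63. Of the non-coding RNAs in the clusters, 9 of 15 listed were in the table and 1 was tested, Mir196a-1, with a log2 fold change of 0.03. Hotair had 1 count in each auxin library and none in the others, and 5 of the 9 had no count at all.

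Other cell types were checked by marker lists, to be read beside the 13% of all tested genes that rose and the 14.5% that fell. All 12 embryonic stem cell markers were tested, of which 3 rose, 6 fell and 3 were not called, at a median of −0.14 on the log2 scale. Their summed level was 7912 and 7790 CPM with auxin, against 8271 and 8151 CPM without. Fbxo15, Nanog and Klf2 rose by 0.42, 0.33 and 0.25 on the log2 scale. Utf1 fell by 2.73, to 22.5 and 21.7 CPM with auxin, against 153 and 139 CPM without, and Esrrb, Tdgf1, Pou5f1, Zfp42 and Sox2 had log2 fold changes between −0.40 and −0.21. Limb and posterior mesenchyme markers were also higher, in a list chosen with earlier results of these data known. Of its 6 markers, 4 were called higher (Isl1, Tbx4, Tbx5 and Shox2), where 13% of all tested genes were. None was called lower, and the markers had a median of 1.26 on the log2 scale. Their summed level was 11.8 and 18.5 CPM with auxin, against 5.13 and 7.80 CPM without, again highest in auxin replicate 2. Tbx4 was lost without auxin replicate 2 (adjusted p = 0.157), Isl1 likewise (0.120) and with DESeq2 (0.124), Tbx5 without replicate 1 of the group without auxin (0.123), and Shox2 whichever library was left out (0.0529 to 0.151). Of 16 fibroblast markers, 8 were tested, 2 rose (Pdgfra and Pdgfrb) and none fell, at a median of 0.39 on the log2 scale. Of the tested ones not called, Col1a1 had 43 and 51 counts with auxin and 32 and 31 without, Twist1 had 86 and 100 against 81 and 80, and Fbln2 had 37 and 69 against 19 and 58. The 8 untested ones (Col3a1, Col6a1, Dcn, Lum, Postn, Prrx1, Tnc and Twist2) had at most 7 counts in any library. The list's sum, carried by Fn1, was 2705 and 2916 CPM with auxin and 2760 and 2906 CPM without. Pdgfrb stood at 9.0 and 15.2 CPM with auxin and 3.16 and 5.76 CPM without, while Pdgfra lost its call without auxin replicate 1 (adjusted p = 0.184), without either library of the other group (0.115 and 0.0735) and with DESeq2 (0.228). Of 6 tested mesoderm and neural progenitor markers, 2 rose (T and Nes), 2 fell (Sox1 and Olig2) and 2 were not called, with sums of 100 and 91.2 CPM with auxin and 102 and 91.5 CPM without. Olig2 was lost without auxin replicate 2 (adjusted p = 0.156) and without replicate 1 of the group without auxin (0.188). The part of differentiated cells in the Hox values was not tested.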

How the data were processed

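Polyadenylated RNA of 4 libraries was counted by the authors into raw fragment counts per gene name, with featureCounts 1.6.3 over exons of an mm10 annotation on the reverse strand, per the file headers. STAR 2.6.1d, Bowtie2 2.4.1 and MACS2 2.1.1 are named in the submitters' processing notes. The deposited peak lists, from 1 sample each, hold for every broad peak its score, fold over background, −log10 p and −log10 q. Which control library and cutoff were used is not given in the sources used. Score and −log10 p were not used in any result, while fold and −log10 q described or filtered peaks within a list. Exon length in bases was taken as the authors' table gives it.

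The libraries held 13353446 and 16046290 counts with auxin, and 14789851 and 15183126 without. edgeR 4.0.16 (R 4.3.3) was fitted to the counts (TMM, default filter, quasi-likelihood F test, two-sided, Benjamini-Hochberg adjustment, threshold 0.05) on the whole table, auxin against none, without a block, and checked on simulated counts. SEs were derived as |log2 fold change| divided by √F. Reads that near-identical or overlapping exons share were not resolved. Replicates differed beyond counting noise (chi-square over its degrees of freedom, 11.1 with auxin and 3.86 without). Intervals for counts of 0 cover counting error only. Alternatives changed factors, filter, test, block, libraries, window and peak strength. Limb, fibroblast, stem cell, mesoderm and pathway lists and members were chosen with earlier results of these data known. All members are accounted for, with per-library values for called members and the untested ones with most counts. From each other list, at most the 4 called genes of smallest p are named. Single genes beyond these, such as Evx2, Hotair, Bmi1, Cbx8 and further stem cell and fibroblast markers, were chosen after their values were seen. Single values of 1 member and 1 other gene are not reported here. The other chromatin samples were not analysed here.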

Additional observations from a re-analysis of the deposited data

How the results depend on the processing

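No tested member changed its call upward or downward with RLE factors, and Hoxd8 alone was gained with upper-quartile factors. The count of Hox genes called higher was 10 to 12 with other factors and filters, 3 with DESeq2, and 5 to 12 when each library was left out in turn. DESeq2 called 880 of all genes higher, and leaving out a library gave 1257 to 1914 genes called lower. Not 1 Hox gene was called lower in any of these settings. Over all genes, fewer were called higher than in the main fit whichever library was left out. The median of the tested Hox genes ranged from 0.57 to 0.91 with a library left out. Log2 values turned negative for 5 uncalled members. With a library left out, they ranged from −0.0699 to 0.608 for Hoxa5, −0.101 to 1.34 for Hoxc8 and −0.137 to 1.02 for Hoxc9 (each lowest without auxin replicate 2), from −0.15 to 1.65 for Hoxa10 (lowest without replicate 1 of the group without auxin) and from −0.023 to 0.245 for Hoxc13 (lowest without its replicate 2). The cause was not tested. Low counts limit the untested 15 members.

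Same-numbered libraries share only a number in the labels, and their deviations correlated at 0.297 over 13522 genes, from a design of 2 pairs. With the replicate number as a block, edgeR called 2972 genes higher and 3177 lower, and 14 Hox genes higher.

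Peak counts moved with the rule. The 5′ end base alone gave 6 members in ChIP-seq, 10 in CUT&RUN and 2 in both. Peaks with a −log10 q of at least 3 gave 7, 0 and 0, and those at or above their list's median fold left 11 in both.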

Other observations

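The mark over whole gene spans differed from that at the 5′ ends. CUT&RUN peaks covered the whole span of Hoxd12, 90.8% of Hoxb7, 81.5% of Hoxb3 and 81.0% of Hoxb1, and ChIP-seq peaks covered 74.8% of Hoxb1 and 66.6% of Hoxb6. Hoxa10, unmarked at its 5′ end in both lists, was covered over 40.4% of its span by ChIP-seq peaks and over 46.6% by CUT&RUN peaks. Hoxb9, also unmarked at its 5′ end, was covered over 42.3% by ChIP-seq peaks and had no CUT&RUN peak in its span. The Hoxc cluster held 28 ChIP-seq peaks and 6 CUT&RUN peaks over 115741 bases, against 56 and 19 over the 173941 bases of Hoxb.

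Per cluster, summed levels were 66.8 and 71.9 CPM with auxin and 48.8 and 47.3 CPM without in Hoxc. In Hoxa they were 17.8 and 26.5 CPM with auxin, against 12.9 and 17.4 CPM without. Hoxb stood at 12.8 and 16.8 CPM with auxin and 8.50 and 9.90 CPM without, and Hoxd at 10.5 and 12.3 against 5.76 and 6.78 CPM. Without Hoxc12 and Hoxc13, the other 36 members summed to 63.3 and 81.7 CPM with auxin, against 39.4 and 49.9 CPM without. In each of these sums both auxin libraries lay above both libraries without auxin.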
